A study of Mus musculus with 15 samples.

Results

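The VEGF, angiopoietin and endothelial genes examined here are 10 of the 17271 genes in the deposited table, and each was found by its symbol. They are 4 ligands (Vegfa, Vegfc, Angpt1 and Angpt2), 4 endothelial receptors (Kdr, Flt1, Flt4 and Tek) and 2 endothelial adhesion markers (Cdh5 and Pecam1). RNA-seq of poly(A) RNA had been made from 15 mouse mammary tumours, all labelled p53-NULL and of strain Balbc. The titles name the models: 4 samples are of 2151R, 1 is of T11, 2 are of 2225L and 8 are of 2208L. Within 2208L, 4 titles carry PBS (a buffer), 3 carry 3day nt and 1 carries ROSEN. In 2151R, replicates 3 and 4 carry NT and the other 2 carry codes. The labels give neither the age of the animals nor what nt, NT and the codes stand for, and no title names a drug. They also do not say that the samples of a model came from separate animals, so p-values measure the spread between these samples. T11 has no replicate and carries no test.

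Vessels grow through receptor tyrosine kinases on endothelial cells, the cells that line blood and lymphatic vessels. Vegfa signals through the receptor encoded by Kdr and is held back by the tightly binding receptor encoded by Flt1, while Vegfc signals mainly through the receptor encoded by Flt4 and drives lymphatic growth. Angpt1 activates the receptor encoded by Tek and steadies vessels, and Angpt2, released by activated endothelium, opposes it in many settings. In tumours the ligands can come from tumour cells, fibroblasts or macrophages, whereas the receptors and Cdh5, the cadherin of endothelial junctions, are largely endothelial. Pecam1, another adhesion molecule of endothelial junctions, is also carried by platelets and some leukocytes.

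Promoters of 6 of the 10 genes are listed in the RefSeq tables of GRCm38.p6 (mm10, the build named in the submitters' processing notes). Shown here are the ligand and the receptors on which the model comparison turns (Vegfc, Kdr and Tek) and Vegfa, whose value followed another pattern. Each run is the 250 bases before the annotated start, on the gene's own strand: Vegfc at chr8:54077282-54077531 (+), Vegfa at chr17:46032378-46032627 (-), Kdr at chr5:75978456-75978705 (-) and Tek at chr4:94739039-94739288 (+). For Vegfa, which has 2 listed starts, the one furthest upstream was used. Capitals mark GGAA or its reverse complement TTCC, the core that ETS factors, a family active in endothelium, can bind.
Vegfc: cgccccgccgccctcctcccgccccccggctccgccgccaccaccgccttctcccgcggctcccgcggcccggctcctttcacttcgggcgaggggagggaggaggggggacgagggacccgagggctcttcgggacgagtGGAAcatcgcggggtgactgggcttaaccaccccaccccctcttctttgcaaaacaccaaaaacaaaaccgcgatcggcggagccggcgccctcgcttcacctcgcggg
Vegfa: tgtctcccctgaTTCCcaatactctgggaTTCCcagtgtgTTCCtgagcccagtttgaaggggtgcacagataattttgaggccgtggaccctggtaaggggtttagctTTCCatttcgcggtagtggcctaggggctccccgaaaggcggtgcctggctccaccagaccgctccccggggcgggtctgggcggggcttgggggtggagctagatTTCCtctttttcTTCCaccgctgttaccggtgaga
Kdr: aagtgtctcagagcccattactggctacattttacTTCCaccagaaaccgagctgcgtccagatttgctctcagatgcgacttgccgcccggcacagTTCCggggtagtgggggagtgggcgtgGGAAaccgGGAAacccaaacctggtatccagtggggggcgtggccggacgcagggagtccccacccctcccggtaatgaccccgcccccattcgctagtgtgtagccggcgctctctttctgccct
Tek: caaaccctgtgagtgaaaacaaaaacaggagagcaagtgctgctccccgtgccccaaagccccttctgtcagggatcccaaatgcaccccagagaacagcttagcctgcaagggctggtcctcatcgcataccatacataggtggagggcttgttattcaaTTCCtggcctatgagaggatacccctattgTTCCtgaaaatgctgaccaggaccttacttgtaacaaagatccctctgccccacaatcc
The core was found 1 time in the Vegfc window, 6 times in Vegfa, 4 times in Kdr and 2 times in Tek, on both strands together. Of 32851 windows of the same length, 93.45% hold it, with a median of 3 matches, so its presence does not set these genes apart. The GC box GGGCGG was matched 2 times each in Vegfc, Vegfa and Kdr and not in Tek (32.74% of all windows hold it). Neither ACGTG, a hypoxia response core (16.57% of windows), nor TATAAA (12.37%) was matched in the 4 windows. Such matches describe letters and not binding.

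Every value below is a log2 value, apparently centred gene by gene on a level the sources do not state. Samples can thus be compared for a given gene, while the abundance of one gene cannot be set against that of another. Depth is unknown because the table holds no counts. Sample medians over all genes lay between -0.29 and 0.10. Trp53, the gene named in the genotype, ran from -0.29 to 1.63 over the samples, which does not show whether a transcript of the null allele is present. A list of 6 skeletal muscle genes averaged 10.85 and 10.31 in replicates 6 and 8 of 2208L, both 3day nt, and 7.34 in the third replicate of 2151R, against -4.56 to 3.34 in the other samples. In comparisons that involve 2208L, any call on the 10 genes that was lost without those samples is named. The model comparison that does not involve 2208L was not refitted without them for the 10 genes. Several list counts are also given without those samples. Library numbers in the titles run in blocks that differ between 2151R, the PBS samples and the 3day nt samples, so block and model or subset cannot be told apart. Titles of the PBS samples also open with DH codes and those of the 3day nt samples with KM codes. What these codes stand for is not given, and they cannot be told apart from the subset either. In whole tumours, fewer endothelial cells and less RNA per cell cannot be told apart either.

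**Figure D1:**
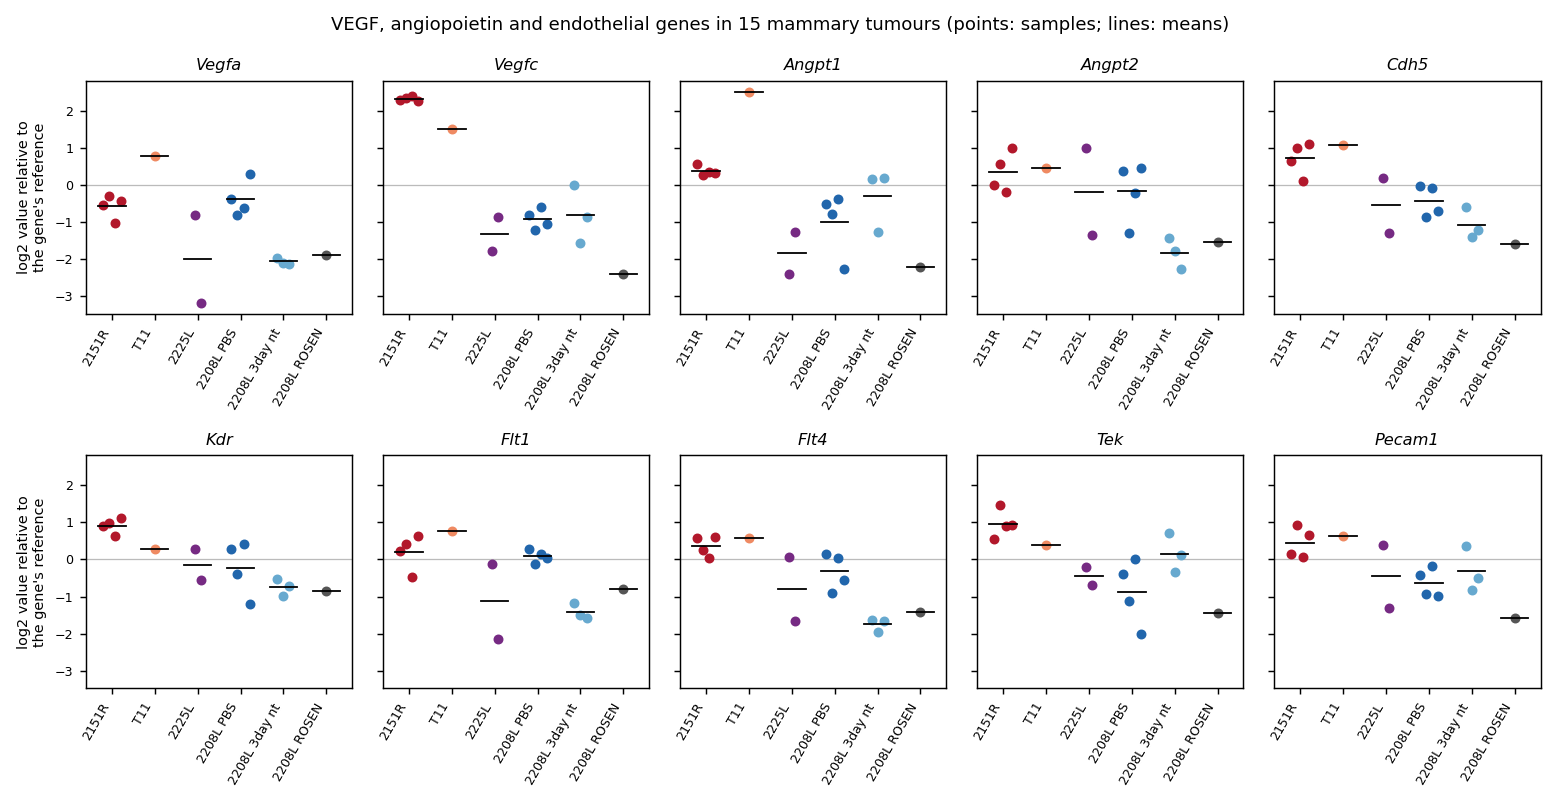
Log2 value of the 10 genes in each of the 15 tumours, relative to an unstated reference of each gene; points are samples, black lines are means, and 2208L is split by its titles. Vegfc lies from 2.26 to 2.39 in the samples of 2151R and at or below 0 in all samples of 2225L and 2208L, whereas Vegfa in 2151R lies within the range of 2208L.

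Set against 2208L, the tumours of 2151R had higher values of Vegfc, Angpt1, 3 receptors and both adhesion markers. Of the 10 genes, 7 were higher in 2151R and 0 lower, by limma with Benjamini-Hochberg adjustment over all genes (adjusted p under 0.05); at an unadjusted p under 0.05 it was 8. Of all genes, 26.1% were called higher, 22.7% lower and 48.8% in either direction. All 10 differences were positive, with a median of 1.34 where the median over all genes was 0.10. The samples of both models did not overlap at 4 of the 10 genes (38.8% of all genes).

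Among the ligands, Vegfc stood furthest apart. Its values in 2151R were 2.28, 2.35, 2.39 and 2.26 for replicates 1 to 4, and in 2208L they ran from -2.38 through a median of -0.95 to 0.00. The groups did not overlap, and the spread within 2151R (SD 0.062, n = 4) was small beside that of 2208L (SD 0.70, n = 8). The mean differed by 3.38 (SE 0.35, limma adjusted p 3.28e-06), a 10.4-fold higher value in 2151R. Against PBS samples alone the difference was 3.24 and against 3day nt samples alone 3.13, and all 24 alternatives run on this gene kept the call.

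Angpt1 was also called. It was 0.56, 0.27, 0.36 and 0.33 in replicates 1 to 4 of 2151R and -2.27 to 0.18 in 2208L, with a median of -0.65. The highest samples of 2208L, replicates 6 and 8 at 0.17 and 0.18, came close to the lowest of 2151R without reaching it. The difference was 1.26 (SE 0.46, limma adjusted p 0.0368). This call is fragile: leaving out any single sample of 2151R, or replicate 1 or 7 of 2208L, raised the adjusted p to between 0.052 and 0.0898, with differences of 1.07 to 1.30. Against 3day nt samples alone the difference was 0.69 (limma adjusted p 0.194).

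Vegfa and Angpt2 were not called. Vegfa was -0.54, -0.29, -1.02 and -0.44 in 2151R and ran from -2.12 through -1.34 to 0.28 in 2208L, with a difference of 0.62 (95% interval -0.50 to 1.75, limma adjusted p 0.344). Its direction depended on the subset of 2208L: against PBS samples it was -0.19, and against 3day nt samples 1.48 (limma adjusted p 0.0373). Angpt2 was 0.00, 0.57, -0.18 and 0.99 in 2151R and -2.25 to 0.46 in 2208L, a difference of 1.31 (95% interval 0.08 to 2.53, limma adjusted p 0.0724). The groups overlapped, and the gap was 2.17 against 3day nt samples (limma adjusted p 0.0129) and 0.52 against PBS samples. Angpt2 passed the threshold without replicate 2 or without replicate 5 of 2208L (differences 1.50 and 1.51), and in the fit of these 2 models alone (limma adjusted p 0.0488).

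Among the receptors, Kdr, Tek and Flt4 were higher in 2151R. The values of Kdr, the main signalling receptor for Vegfa, were 0.90, 0.97, 0.62 and 1.12 in 2151R and from -1.19 to 0.41 in 2208L, and they did not overlap. The difference was 1.40 (SE 0.30, limma adjusted p 0.0016) and was called in all 24 alternatives. Tek, the angiopoietin receptor, was 0.56, 1.46, 0.90 and 0.92 in 2151R against -2.01 to 0.70 in 2208L. It differed by 1.52 (SE 0.43, limma adjusted p 0.00998), overlapping in the lowest sample of 2151R and the highest of 2208L. Against 3day nt samples alone the Tek difference was 0.80 and no longer called (limma adjusted p 0.0569).

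Flt4, the receptor for Vegfc, was 0.57, 0.26, 0.04 and 0.61 in 2151R and -1.94 to 0.15 in 2208L. It differed by 1.36 (SE 0.43, limma adjusted p 0.019). The groups overlapped, and the size depended on the subset of 2208L: the difference was 2.12 against 3day nt samples and 0.68, not called, against PBS samples. The call was also lost without replicate 1 or replicate 4 of 2151R (differences 1.30 and 1.28) and without the 3 samples high in muscle genes (1.25, limma adjusted p 0.0677). Flt1, the receptor that sequesters Vegfa, was 0.23, 0.42, -0.47 and 0.63 in 2151R, with 2 of the 4 inside the 2208L range of -1.59 to 0.28, and was not called (difference 0.79, 95% interval -0.19 to 1.77, limma adjusted p 0.166). It passed against 3day nt samples (1.63, limma adjusted p 0.0218), while against PBS samples the difference was 0.11.

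Both adhesion markers were higher in 2151R. Cdh5 was 0.65, 1.0, 0.11 and 1.09 in 2151R and -1.58 to -0.04 in 2208L, with no overlap, and differed by 1.52 (SE 0.35, limma adjusted p 0.00277). That call held in all 24 alternatives. Pecam1 was 0.14, 0.92, 0.07 and 0.66 against -1.58 to 0.37, overlapping in 1 sample of 2208L (replicate 6), and differed by 1.08 (SE 0.36, limma adjusted p 0.0257). Without replicate 2 or replicate 4 of 2151R it was not called (0.92 and 1.01), nor against 3day nt samples alone (0.77, limma adjusted p 0.2). When only the samples with NT, nt or PBS in their titles entered the fit, 3 of the 10 genes were called (37.3% of all genes), and these were Vegfc, Kdr and Cdh5.

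**Figure D2:**
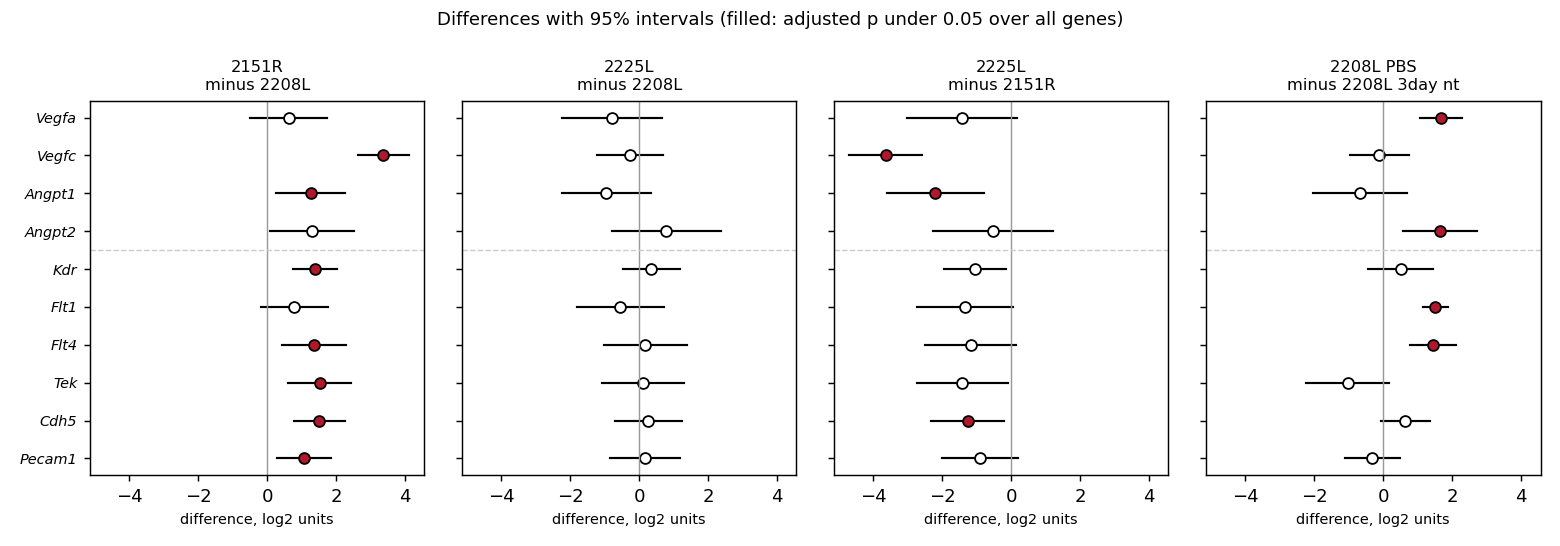
Difference in log2 units for each of the 10 genes in 4 comparisons, with 95% intervals from limma; filled points have an adjusted p under 0.05 over all genes, and the dashed line parts ligands (above) from receptors and markers. Vegfc lies at 3.38 for 2151R minus 2208L and at -0.11 for 2208L PBS minus 2208L 3day nt, where Vegfa, Angpt2, Flt1 and Flt4 are filled.

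Other genes of these pathways were read from a list of 15, of which 14 are in the table. In 2151R against 2208L, 9 were higher and 1 lower, where 26.1% of all genes were called higher and 22.7% lower. The median of the list's differences was 1.17. The largest were Ccbe1, a secreted factor needed to process Vegfc (5.52, SE 0.69, limma adjusted p 1.95e-05), and Nrp2, a co-receptor for Vegfc (3.37, SE 0.28, limma adjusted p 4.64e-07). Other genes of Vegfc processing and lymphatic growth are named here after their values were seen. Adamts3, the protease that cleaves Vegfc, differed by 2.23 and Svep1, a matrix protein of lymphatic growth, by 2.31, both called. The single lower gene was Pgf, the Flt1 ligand placental growth factor, by a difference of -2.01 (limma adjusted p 0.0155). Nrp1, a co-receptor for Vegfa, differed by 1.82 and Vegfb, a further Flt1 ligand, by 0.96, both called. Vegfd, the closest relative of Vegfc, was not (1.96, limma adjusted p 0.0696). Without the 3 samples high in muscle genes, 10 were higher and 1 lower (42.7% of all genes were called in that fit). With only the PBS samples of 2208L the counts were 8 and 2 (47%). With only the 3day nt samples they were 7 and 0 (50.3%), so Pgf was not called there.

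**Figure D3:**
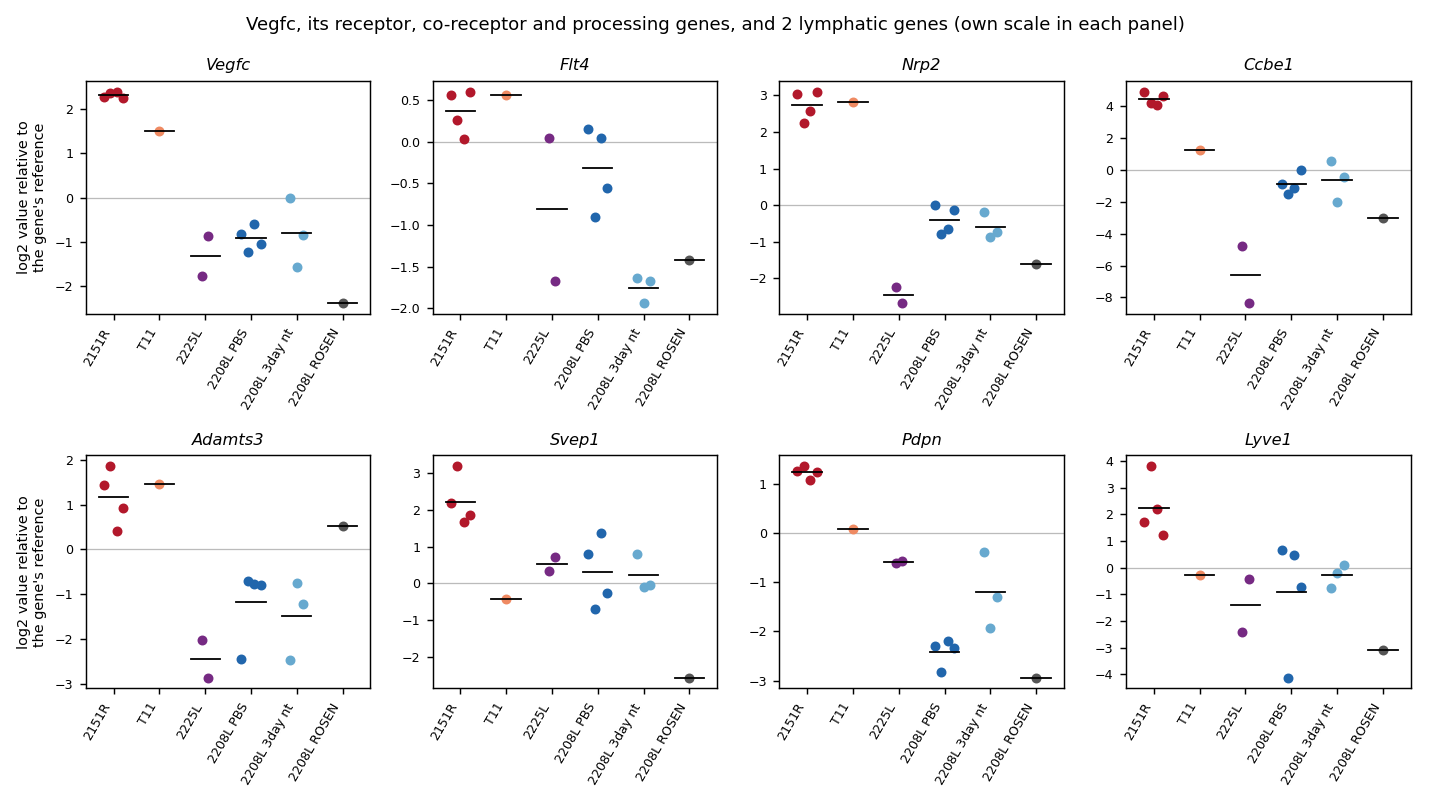
Log2 values of Vegfc, its receptor Flt4, co-receptor Nrp2, the processing genes Ccbe1 and Adamts3, and Svep1, Pdpn and Lyve1 in each tumour, each panel on its own scale; black lines are means. In 2151R, Nrp2 lies from 2.25 to 3.10 and Ccbe1 from 4.09 to 4.92, above all samples of 2208L.

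Nrp2 was 3.04, 2.25, 2.56 and 3.10 in replicates 1 to 4 of 2151R and at most 0.00 in 2208L, so the groups were well apart. Ccbe1 was 4.92, 4.22, 4.09 and 4.66 in 2151R and at most 0.57 in 2208L. Among 7 lymphatic endothelial genes, 5 are in the table. Of those, 4 were higher in 2151R (26.1% of all genes were) and 1, Itga9, lower (-1.33, with 22.7% of all genes lower). Without the samples high in muscle genes 3 were higher (42.7% of all genes called in either direction). Against PBS samples alone 3 were (47%), and against 3day nt samples alone 2 were, with 0 lower (50.3%). The largest of the 4 were Ccl21a, a chemokine of lymphatic vessels (3.55, SE 1.39, limma adjusted p 0.0485), and Pdpn (3.27, SE 0.39). Pdpn is a membrane protein of lymphatic endothelium that fibroblasts and other mesenchymal cells also make. The groups overlapped at Ccl21a, which ran from 0.14 to 4.76 in 2151R and from -2.89 to 2.57 in 2208L. Replicates 2 and 4 of 2208L shared its lowest value, which may be a floor. Prox1, the transcription factor that defines lymphatic endothelium, is not among the genes analysed here. Lyve1, which macrophages carry too, differed by 3.20 (limma adjusted p 0.00874).

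A list of 26 further endothelial markers gave 13 higher, 1 lower and 12 not called. Of all genes, 26.1% were called higher, 22.7% lower and 48.8% in either direction. In the list, 25 of the 26 differences were positive, with a median of 0.77. Tie1 stands both in this list and in that of the other pathway genes, and is counted as higher in both. The largest were Sox7, an endothelial transcription factor (2.13, SE 0.40, limma adjusted p 0.000658), and Cd93, an endothelial surface receptor (2.04, SE 0.39, limma adjusted p 0.00078). The one lower gene was Eng, a co-receptor for TGF-beta ligands (-1.01). Without the 3 samples high in muscle genes the counts were 17 and 1 (42.7% of all genes were called in that fit). With only the PBS samples of 2208L they were 14 and 1 (47%), and with only the 3day nt samples 6 and 0 (50.3%). The list mean ran from 0.19 to 0.81 in 2151R and from -1.22 to 0.36 in 2208L.

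Markers of other cell types were counted in the same contrast, to be read against the 48.8% of all genes called. All 6 epithelial markers were lower in 2151R (Cldn7 by a difference of -8.34, Epcam -6.58), and of 10 macrophage markers 6 were higher (Mrc1 2.28, Cd68 1.83), with list means of 0.21 to 0.64 in 2151R and -1.19 to 0.30 in 2208L. Of 7 fibroblast markers 3 were higher (Dcn 3.56, Pdgfra 2.10), with list means of 0.75 to 1.82 and -1.68 to 1.19. Of 6 adipocyte markers 2 were higher (Lep 3.95, Fabp4 1.71), with list means of 2.37 to 5.50 and -3.19 to 3.01. Against PBS samples alone 6 of the 6 adipocyte markers were higher, and against 3day nt samples alone 1 was. Without the samples high in muscle genes, 4 macrophage markers were higher and 1 platelet marker was higher beside the 1 lower. No skeletal muscle marker of 6 was called by limma (0 also at an unadjusted p under 0.05). Of 4 platelet and megakaryocyte markers 1, Itga2b, was lower (-1.14). The part of these cell types in the vascular differences was not tested. Values centred per gene do not state which markers are absent, though some repeat a lowest value that may be a floor. Plin1 was -3.59 and Lep -0.35 in replicates 2, 3 and 5 of 2208L and in replicate 1 of 2225L.

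In the single tumour of T11, 7 of the 10 genes lay above all 8 samples of 2208L, which was so for 35.79% of all genes. The exceptions were Angpt2, Kdr and Tek. Its Angpt1 value was 2.51, which is 2.13 above the mean of 2151R and 3.40 above that of 2208L. Vegfa was 0.78, also above every sample of 2151R and of 2208L, and Flt1 was 0.77, likewise. Vegfc at 1.51 lay below 2151R and above 2208L. Kdr (0.28) and Tek (0.38) lay below all samples of 2151R, and Angpt2 (0.45), Flt4 (0.56), Cdh5 (1.07) and Pecam1 (0.62) within its range. Nrp1 was 2.71 and Nrp2 2.81 in this tumour, while Svep1 was -0.44 and Lyve1 -0.27, both under the samples of 2151R. The means of the lists were 0.66 for endothelial markers, 0.46 for hypoxia response genes, 1.04 for macrophage and 0.67 for fibroblast markers.

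Between 2225L and 2208L, 0 of the 10 members were called by limma in the main fit and 0 had an unadjusted p under 0.05. Of all genes, 32.9% were called (15.6% higher, 17.3% lower). The samples did not overlap at 0 of the 10 (31.7% of all genes). Against PBS samples alone Vegfa was called lower (limma adjusted p 0.0454, 43.7% of all genes called). Against 3day nt samples alone Angpt1 was (limma adjusted p 0.0486, 30.3%). In the main fit, differences ran from -0.95 (Angpt1, 95% interval -2.23 to 0.34) to 0.78 (Angpt2, -0.80 to 2.36). For Vegfc the difference was -0.26 (-1.23 to 0.70). For Kdr it was 0.35 (-0.48 to 1.17), for Cdh5 0.26 (-0.71 to 1.23) and for Tek 0.11 (-1.09 to 1.31). These intervals are wide, and differences of 1 log2 unit in either direction lie inside that of Tek.

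The 2 samples of 2225L were unlike at most of these genes. Vegfa was -0.81 in replicate 1 of 2225L and -3.18 in replicate 2, Angpt2 1.0 and -1.36, Flt1 -0.12 and -2.15. In all, 8 of the 10 genes were higher in replicate 1 (45.97% of all genes were), and 7 differed by at least 1 log2 unit between the samples (34.08% of all genes). The exceptions in direction were Vegfc (-1.78 and -0.87) and Angpt1 (-2.40 and -1.26). These samples differ in library prefix, CP for replicate 1 and ROSEN for replicate 2. The ROSEN sample of 2208L was the lowest of its 8 samples at Vegfc, Cdh5 and Pecam1. It was not the lowest at the other members, among them Vegfa, Angpt2 and Flt1. The share of all genes at which it was lowest was not counted. With prefix as a covariate the count of called genes stayed 0.

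List counts between 2225L and 2208L are to be read against all genes, of which 15.6% were called higher and 17.3% lower. Of the 14 other pathway genes, 2 were higher (Vegfb and Plcg1) and 3 lower in 2225L than in 2208L, near those shares. All were named after their values were seen. The lower ones were Nrp2 (-1.84, limma adjusted p 0.00188), Ccbe1 (-5.53, limma adjusted p 0.000423) and Angpt4, a further angiopoietin (-3.0). Of the 26 endothelial markers 0 were higher and 1, Ecscr, lower (-1.22). Of 10 macrophage markers 5 were lower (Csf1r, Adgre1, C1qa, C1qc and Fcgr1), and of 12 hypoxia response genes 3 were (Egln3, Pfkfb4 and Ddit4), with 0 higher in either list. Without the samples high in muscle genes, 3 macrophage and 2 endothelial markers were lower (33.5% of all genes called in either direction). Of the hypoxia genes, 6 were lower and 0 higher against PBS samples alone (median difference -1.36, 43.7% of all genes called). With only the 3day nt samples of 2208L, 2 of them were lower and 1 higher (median 0.22, 30.3%).

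Between 2225L and 2151R, 3 of the 10 genes were lower in 2225L and 0 higher by limma, where 25.8% of all genes were called lower, 22.8% higher and 48.6% in either direction. All 10 differences were negative, and at 4 genes (Vegfc, Angpt1, Kdr and Tek) the samples did not overlap, as at 62.4% of all genes. Vegfc differed by -3.64 (SE 0.49, limma adjusted p 4.78e-05), with -1.78 and -0.87 in 2225L and at least 2.26 in 2151R. Angpt1 differed by -2.21 (SE 0.65, limma adjusted p 0.0134). Cdh5 lay just inside the threshold (-1.26, SE 0.49, limma adjusted p 0.0496) and Kdr just outside (-1.05, SE 0.42, limma adjusted p 0.0526). Dropping replicate 1, 2 or 4 of 2151R (-1.28, -1.16 and -1.13) or replicate 2 of 2225L (-0.52) ended the call of Cdh5. Of the 15 alternatives, 5 kept that call, and centring of samples, quantile normalization, robust moderation, sample weights, the prefix covariate and a fit of these 2 models alone also ended it. Without replicate 1 of 2225L, 7 of the 10 were called (47.5% of all genes) and Angpt1 was not (-1.64, limma adjusted p 0.126). That fit leaves 1 sample of 2225L, from the ROSEN library, which is assumed to vary like the other models. Of the 14 other pathway genes 7 were lower, among them Nrp2 (-5.20), and 2 higher, Pgf (3.47) and Plcg1 (1.07). Comparisons with 2208L and with 2151R share samples, and no difference between their effects is drawn.

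Within 2208L, the PBS and 3day nt samples were compared as the titles set them apart; the meaning of nt is not given. Vegfa, Angpt2, Flt1 and Flt4 were higher in PBS samples, 4 of the 10 genes with 0 lower by limma, where 17.4% of all genes were called higher, 16.5% lower and 34% in either direction. At all 4 the samples did not overlap (44.8% of all genes). Tek, Angpt1, Pecam1 and Vegfc had differences below 0, none of them called.

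Vegfa was -0.39, -0.80, -0.61 and 0.28 in the PBS samples (replicates 2 to 5) and -1.96, -2.09 and -2.12 in the 3day nt samples (replicates 6 to 8). The difference was 1.68 (SE 0.26, limma adjusted p 0.00649), 3.20-fold higher in PBS. Flt1 was 0.28, -0.13, 0.16 and 0.05 in PBS and -1.17, -1.51 and -1.59 in 3day nt samples, 1.51 apart (SE 0.15, limma adjusted p 0.00276). For Flt4 the values were 0.15, -0.90, 0.05 and -0.55 against -1.64, -1.94 and -1.67, a difference of 1.44 (SE 0.28, limma adjusted p 0.011). All 3 of these calls held with any single sample left out. Angpt2, at 0.36, -1.30, -0.23 and 0.46 against -1.43, -1.79 and -2.25, differed by 1.65 (SE 0.45, limma adjusted p 0.0329), but 6 of the 7 fits without 1 sample lost its call (all but that without replicate 3, adjusted p 0.0597 to 0.116, differences of 1.43 to 1.85).

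Tek went the other way in its values, at -0.39, -1.13, 0.00 and -2.01 in PBS and 0.70, -0.35 and 0.11 in 3day nt samples (difference -1.04, 95% interval -2.24 to 0.17, limma adjusted p 0.152). The groups overlapped, and replicate 5 was the lowest PBS sample for Tek (-2.01), Kdr (-1.19) and Angpt1 (-2.27) while it was the highest for Vegfa. Pecam1 differed by -0.31 (-1.12 to 0.49), Angpt1 by -0.68 (-2.04 to 0.68) and Vegfc by -0.11 (-0.98 to 0.76). Cdh5 differed by 0.65 (-0.06 to 1.35, limma adjusted p 0.129) and Kdr by 0.51 (-0.43 to 1.46). Of the 26 endothelial markers 1, Eng, was higher in PBS samples (0.77) and 0 lower (17.4% and 16.5% of all genes), with a median difference of -0.22. Without replicates 6 and 8, 0 were called by limma (2 at an unadjusted p under 0.05), and the median was 0.43, with 18 of 26 differences positive.

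Replicates 6 and 8, which hold the high muscle values, are 2 of the 3 samples titled 3day nt. Replicate 7, whose muscle mean was 2.09, was the lowest of the 3 at 7 of the 10 genes (39.02% of all genes), and replicate 6 at 0. Leaving out replicates 6 and 8, a choice made after the data were seen, leaves 1 sample that is assumed to vary like the PBS samples. That fit called 98 of all genes and 0 of the 10 (3 at an unadjusted p under 0.05), and the differences of Vegfa (1.71), Angpt2 (1.61), Flt1 (1.60) and Flt4 (1.63) were about as large. Those of Vegfc, Angpt1 and Pecam1 changed sign to 0.65, 0.29 and 0.21. Beside this, adipocyte means were 2.66 to 2.97 in 3day nt samples and -3.19 to 3.01 in PBS samples, and macrophage means -0.18 to 0.30 and -1.07 to -0.03. Against the 34% of all genes called in the comparison of all 7 samples, 0 of 6 adipocyte markers were called by limma (4 at an unadjusted p under 0.05), and of 6 muscle markers 1, Pvalb, was lower in PBS (-9.48). Of 10 macrophage markers Mertk was higher (1.09) and C1qa lower (-0.71). Their part in these differences was not tested.

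**Figure D4:**
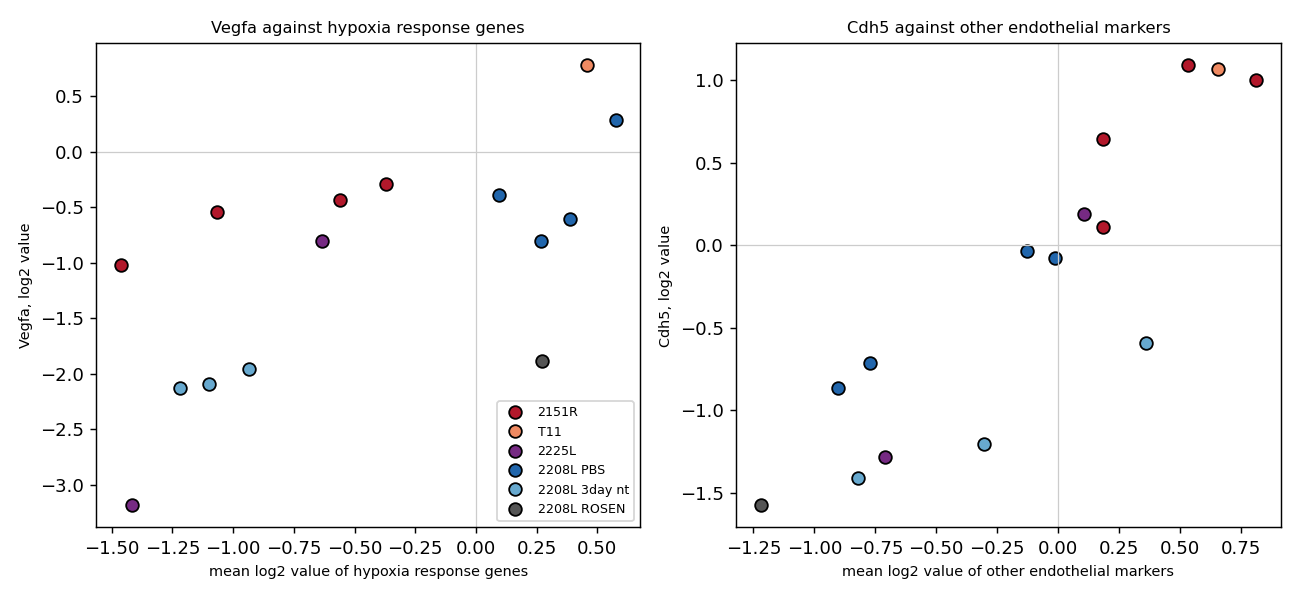
Left, Vegfa against the mean of 12 hypoxia response genes; right, Cdh5 against the mean of 26 other endothelial markers, both as log2 values, 1 point for each of the 15 tumours. The 3day nt samples lie at hypoxia means of -1.22 to -0.94 with Vegfa at -2.12 to -1.96, the PBS samples at 0.10 to 0.57, and the ROSEN sample of 2208L combines a hypoxia mean of 0.27 with a Vegfa value of -1.89.

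Hypoxia response genes, which low oxygen induces through HIF factors and to which Vegfa itself belongs, separated the same subsets. Of 12 such genes without Vegfa, 10 were higher in PBS samples (17.4% of all genes were) and 1 (Pfkfb4) was lower (16.5%). Car9 was not called, and the median difference of the 12 genes was 1.50. Among them, chosen after their values were seen, Slc2a1, the main glucose transporter, differed by 1.75 (SE 0.25, limma adjusted p 0.00551) and Bnip3, a mitophagy gene, by 2.06 (SE 0.23, limma adjusted p 0.00317). The list mean was 0.10, 0.27, 0.39 and 0.57 in PBS samples and -0.94, -1.10 and -1.22 in 3day nt samples. Without replicates 6 and 8, 0 genes of the list passed limma's threshold (9 at an unadjusted p under 0.05), with a median difference of 1.45 and 11 of 12 positive. In 2151R the list averaged -1.46 to -0.37 with Vegfa at -1.02 to -0.29. Against 2208L as a whole 1 hypoxia gene was higher and 4 lower in 2151R (Ddit4 -2.32, Vldlr -1.90), and Vegfa was not called. Of all genes, 26.1% were higher and 22.7% lower there. The list's median difference was -0.78. With only the PBS samples of 2208L it was -1.42, with 0 higher and 7 lower (47% of all genes called in either direction). With only the 3day nt samples it was 0.08, with 2 higher and 3 lower (50.3%).

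Some genes of endothelial sprouting also differed between the subsets. Of 10 tip cell and sprouting genes, 5 were higher in PBS samples, 1 (Pdgfb) was lower and the rest were not called. Of all genes, 17.4% were called higher, 16.5% lower and 34% in either direction. The list's median difference was 0.79. Esm1, a secreted proteoglycan of tip cells, was 0.34, -1.72, -0.28 and -0.26 in PBS and -3.10, -3.49 and -3.49 in 3day nt samples, a difference of 2.88 (SE 0.46, limma adjusted p 0.00699). Apln, Dll4, Kcne3 and Igfbp3 were the other 4, at 0.89 to 1.51. Pgf (1.91) and Nrp1 (1.41) were the 2 higher of the 14 other pathway genes, with 0 lower. Without replicates 6 and 8, 1 of the 10 sprouting genes was called and 5 had an unadjusted p under 0.05, with a median difference of 0.81 and 8 of 10 positive. In that fit, which called 0.567% of all genes, 0 of the 14 pathway genes were called by limma (1 at an unadjusted p under 0.05). In 2151R against 2208L the same list gave 2 higher (Angptl4 2.21, Aplnr 1.89) and 2 lower (Pdgfb and Cxcr4). Of all genes, 26.1% were called higher and 22.7% lower there.

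To set the ligands against the endothelial genes, each ligand was taken relative to the mean of the 6 receptors and markers in the same sample, as a description with no test. That mean was 0.51, 0.84, 0.21 and 0.84 in 2151R, 0.61 in T11, 0.09 and -1.28 in 2225L, and ran from -1.28 through -0.81 to 0.06 in 2208L. Relative to it, Vegfc was 1.42 to 2.18 in 2151R and -1.11 to 0.48 in 2208L, so its excess in 2151R was larger than that of the receptors. Vegfa was lower relative to the endothelial mean in 2151R (-1.27 to -1.05) than in the PBS samples (-0.67 to 1.18), and close to the 3day nt samples (-1.48 to -0.91). Angpt1 lay at -0.57 to 0.15 in 2151R, inside the 2208L range of -1.37 to 1.10, and at 1.90 in T11. Angpt2 was -0.51 to 0.15 in 2151R, inside the range of 2208L (-1.33 to 1.36).

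**Figure D5:**
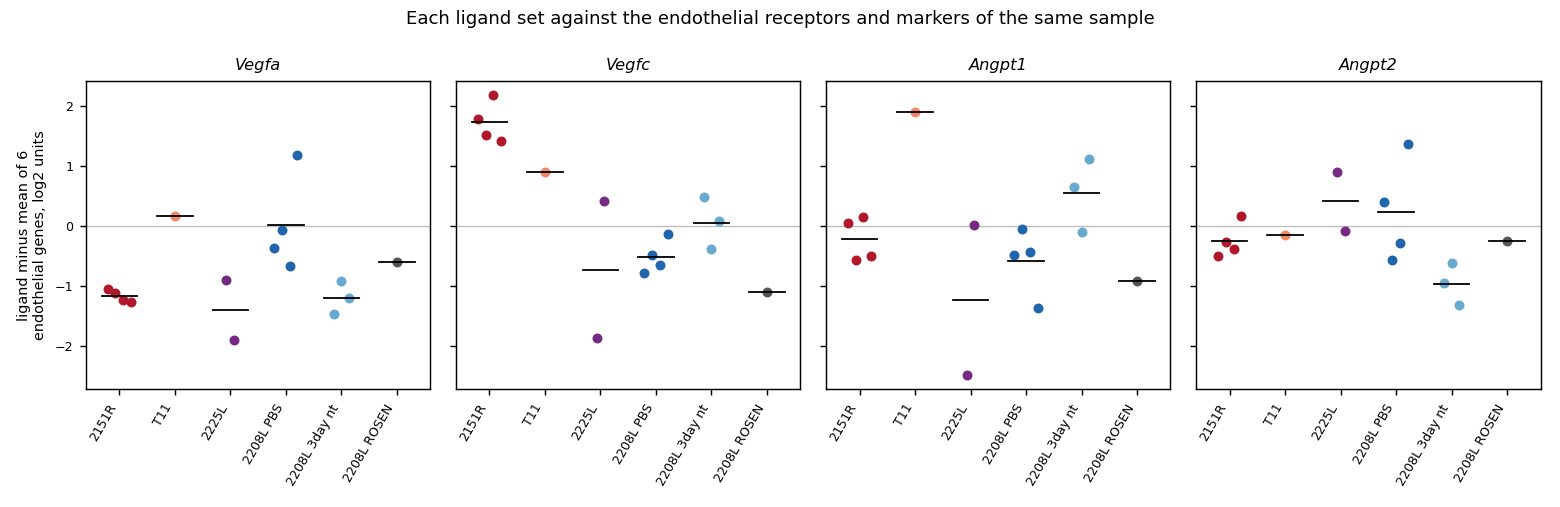
Each ligand minus the mean of the 6 endothelial receptors and markers in the same tumour, in log2 units; points are samples and black lines means. Vegfc lies at 1.42 or more in 2151R and at 0.48 or less in 2208L, while Angpt2 in 2151R lies within the range of 2208L.

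The genes most like each member were taken as the 2 with the highest Pearson correlation over the 15 samples, which share model and library range, so the coefficients describe this set of tumours. For Cdh5 they were Cd93 (0.98) and Adgrl4 (0.97), both endothelial surface receptors, and after subtraction of model means over 14 samples the coefficients were 0.93 and 0.96. Vash1, an endothelial inhibitor of angiogenesis, was nearest to both Flt4 (0.97) and Flt1 (0.95), followed by Adgrf5 for Flt1 (0.95) and Ttc17 for Flt4 (0.96). Dll4, a Notch ligand of tip cells, was nearest to Angpt2 (0.88), followed by Npr3 (0.88). Tek was nearest to Kcna5 (0.97) and C1qtnf6 (0.94), Kdr to Gimap4 (0.94) and Fut4 (0.94), and Pecam1 to Exoc3l (0.96) and Pde8a (0.95). For Vegfc they were Lamtor3 (0.99) and Marveld1 (0.98), for Angpt1 Cpq (0.95) and Kcnd1 (0.94). Vegfa was nearest to Eno2 (0.93), a glycolytic enzyme, and Fgfr1 (0.91).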

How the data were processed

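RNA was extracted with a Qiagen kit and its poly(A) fraction made into TruSeq libraries, per the labels' protocols. The submitters' processing notes name STAR, Salmon and the build mm10, without roles or versions. The authors deposited 1 table of log2 values, 17271 genes by 15 samples, with each gene apparently centred on a median, as the table's name implies. The offset before the logarithm, the scaling between samples and the set used for centring are not given in the sources used here, and depth is unknown.

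The model that each title names set the groups. Differences were fitted in R 4.3.3 with limma 3.58.1 (linear model and empirical Bayes moderation without trend) on all genes as deposited, with no filter and Benjamini-Hochberg adjustment over 17271 genes. Model comparisons used 1 fit of all 15 samples, the PBS and 3day nt comparison a fit of those 7. None of the 10 members holds a repeated value. The fit was tested on simulated data with known differences. Those data held independent normal noise and no library blocks or tissue mixture, so that test does not cover such structure in the tumours. Named genes are the 10 members, the 2 nearest genes of each by Pearson correlation (without predicted genes), and the 2 largest called differences of each of 12 lists in 2151R against 2208L; every other gene named was chosen after its values were seen. The members and lists were chosen with earlier results of these data known. Promoters are from RefSeq.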

Additional observations from a re-analysis of the deposited data

How the results depend on the processing

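Alternatives were scaling (centring each sample, quantile normalization), eBayes with trend or robust, leaving out the lowest 25% of genes by SD, a minimum of 1 log2 unit, other choices of samples, sample weights, library prefix and leaving out single samples. No paired analysis was possible because replicate numbers here follow accession order and pair nothing. Of 750 differences under an alternative, 662 kept direction and side of the threshold. The cause of the changes below was not tested, and fewer samples enter most of them.

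The main fits called 48.8% of all genes in 2151R against 2208L and 32.9% in 2225L against 2208L. They called 48.6% in 2225L against 2151R and 34% in PBS against 3day nt. That share changes with the samples that enter, so the counts below do not by themselves show changes in these members. The count of called members in 2151R against 2208L was 3 when only titles with NT, nt or PBS entered. It was 4 (without replicate 4 of 2151R) to 8 with single samples left out. In 2225L against 2208L it was 1 with PBS samples only (Vegfa, lower, with 43.7% of all genes called). It was 1 with 3day nt samples only (Angpt1, lower, with 30.3%), and 0 with any single sample left out. In 2225L against 2151R it was 1 with library prefix as a covariate and 2 to 7 (7 without replicate 1 of 2225L) with single samples left out. For PBS against 3day nt it was 0 without replicates 6 and 8, an alternative chosen after seeing the data, and 3 to 4 with single samples left out.

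Differences that changed sign were not called in either fit. In 2151R against 2208L this was Vegfa with PBS samples only (-0.19). In 2225L against 2208L it was Vegfc with quantile normalization (0.19) and Flt4 with sample weights (-0.23) or without the samples high in muscle genes (-0.039). With PBS samples only it was Angpt2 (-0.0060), Flt4 (-0.50) and Cdh5 (-0.12), and with 3day nt samples only Vegfa (0.060), Flt1 (0.29), Tek (-0.61) and Pecam1 (-0.14). With single samples left out, that comparison ranged over -1.99 to 0.39 for Vegfa, -0.72 to 0.19 for Vegfc, -0.39 to 1.96 for Angpt2, -0.071 to 0.76 for Kdr and -1.56 to 0.47 for Flt1. It ranged over -0.68 to 1.04 for Flt4, -0.13 to 0.35 for Tek, -0.47 to 1.0 for Cdh5 and -0.67 to 1.03 for Pecam1. In 2225L against 2151R, Angpt2 was 0.11 with library prefix and -1.70 to 0.65 with single samples left out. In PBS against 3day nt, Vegfc, Angpt1 and Pecam1 were 0.65, 0.29 and 0.21 without replicates 6 and 8, and with single samples left out Vegfc was -0.49 to 0.29 and Pecam1 -0.57 to 0.032.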

Other observations

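Mural cells, the pericytes and smooth muscle cells that wrap small vessels, were read from a list of 12 genes. None was higher in 2151R than in 2208L by limma, and 3 were lower: Notch3, a receptor of mural cells (-1.39, SE 0.43, limma adjusted p 0.0163), Cspg4, the NG2 proteoglycan (-1.03, SE 0.20, limma adjusted p 0.000936), and Acta2, smooth muscle actin (-0.91). That is near the share of all genes called lower, 22.7%, and 2 were lower without the samples high in muscle genes. The list's median difference was -0.49, where that of the endothelial markers was 0.77. Rgs5 (0.07), Pdgfrb (-0.01), Kcnj8 (0.21) and Abcc9 (0.08) were not called. Within 2208L, 4 of the 12 were higher in PBS than in 3day nt samples and 0 lower, where 17.4% of all genes were called higher and 34% in either direction. Kcnj8 and Abcc9, the subunits of a potassium channel of pericytes, differed by 2.21 (SE 0.23, limma adjusted p 0.00276) and 1.58 (SE 0.40, limma adjusted p 0.0244), Higd1b by 1.49 and Notch3 by 1.45. Those 4 were named after their values were seen, and 0 of the list were called by limma without replicates 6 and 8 (5 at an unadjusted p under 0.05), where the median difference was 1.03.

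No member lay far from the rest of its group in the 30 groups of 4 or 8 samples examined, where chance gives about 1.5.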
